A study of Saccharomyces cerevisiae with 10 samples.

Results

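The Ras and protein kinase A pathway was followed through 9 genes of the budding yeast Saccharomyces cerevisiae: RAS1, RAS2, CYR1, IRA1, IRA2, BCY1, TPK2, TPK3 and PDE2. They were picked by symbol from the 6059 genes in the deposited count table, and all 9 passed the filter on low counts that left 6015 genes for testing. The libraries came from 4 groups: Z100, a strain adapted by evolution under heat, after 1 h of heat shock at 50 °C (n = 3) and labelled 30 °C (n = 3), and XH7, the control strain, after 1 h at 50 °C (n = 2) and labelled 30 °C (n = 2). No engineered allele or agent is named for either strain, and the labels do not say whether Z100 is a single clone. The study asked what had changed genetically in Z100. In the extraction text the unheated cultures stand in ice water, whereas the sample labels give 30 °C, so the state of these cells is known only as far as both labels go. Nothing in the labels ties libraries to separate cultures, so the p-values below measure the spread between libraries, which may be technical.

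In budding yeast, Ras1 and Ras2 are small GTPases that in their GTP-bound form switch on adenylate cyclase, which makes cyclic AMP. Ira1 and Ira2 return Ras to its GDP-bound form, and phosphodiesterases degrade cyclic AMP. Cyclic AMP binds Bcy1, the regulatory subunit of protein kinase A (PKA), and frees catalytic subunits such as Tpk2 and Tpk3. Active PKA is known for favouring growth and fermentation on glucose and for holding back the general stress response.

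Poly(A) RNA was sequenced to between 51901045 and 81442848 gene counts per library, and no member had fewer than 372 counts in any library. Levels are given as scaled RPKM, the RPKM (counts scaled by gene length and library total) after TMM scaling, which permits comparison between genes. A value after ± is the SD for a level and the standard error for a log2 fold change, and adjusted p-values come from edgeR's quasi-likelihood test over all 6015 genes. Libraries of a group spread by an SD of log2 CPM whose median gene had 0.258 (heat-shocked Z100), 0.174 (unheated Z100), 0.324 (heat-shocked XH7) and 0.0917 (unheated XH7). Because levels are relative to all other messenger RNA in a library, a change in a gene and a change in total RNA per cell cannot be told apart.

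With heat shock, paralogs of this pathway moved apart in both strains: RAS2, IRA2 and TPK2 rose, RAS1 and TPK3 fell, and IRA1 rose less than its paralog IRA2. In Z100, 7 of the 9 genes rose and 2 fell, where 69.9% of all genes tested were called in either direction (33.8% higher and 36.2% lower). In XH7, 6 rose, 2 fell and PDE2 did not pass the test, where 63.3% of all genes were called (31.3% higher and 32% lower). The median log2 fold change of the 9 genes was 1.77 in Z100, beside -0.05 over all genes, and 1.84 in XH7, beside 0.01. Heat-shocked and unheated libraries of a strain did not overlap for any of the 9 genes, which held for 75.2% of all genes in Z100 and 81.9% in XH7. The plot of levels by library shows every value.

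**Figure D1:**
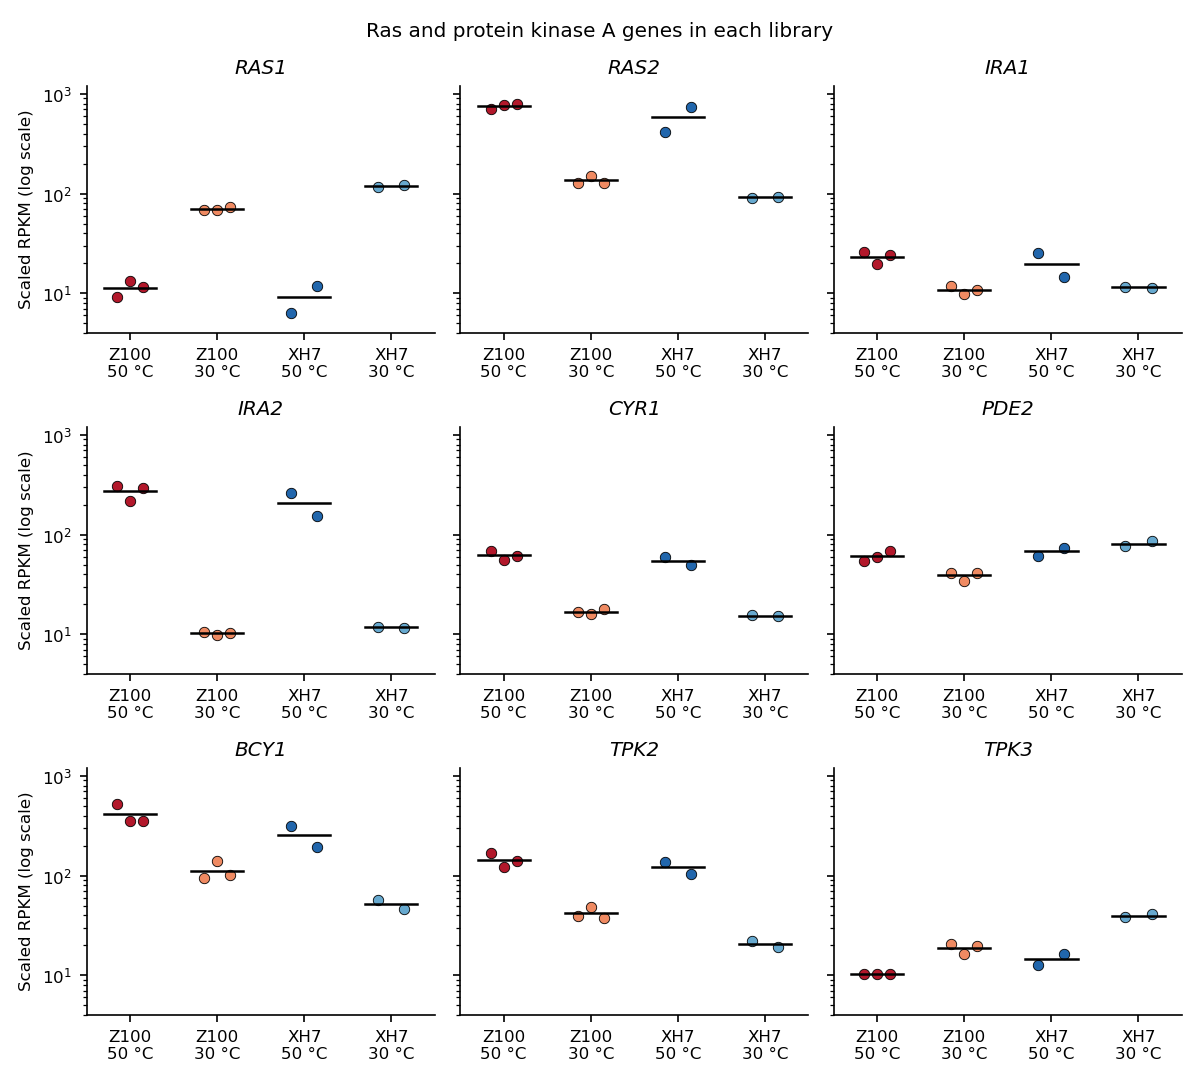
Levels of the 9 genes in each library, as scaled RPKM on a log axis, with 1 panel per gene. Points are libraries and lines are group means. RAS2 reached 704 to 792 scaled RPKM in Z100 at 50 °C, whereas RAS1 lay between 6.38 and 13.4 in all heat-shocked libraries of both strains.

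The 2 GTPase genes changed in opposite directions. RAS1 (YOR101W, chrXV:515244-516173, plus strand, R64), like the other members annotated as 1 uninterrupted coding sequence, had 9.15, 13.4 and 11.6 scaled RPKM in Z100 at 50 °C, against 68.0, 68.2 and 73.5 in Z100 at 30 °C. In XH7 it had 6.38 and 11.9 at 50 °C, against 116 and 121 at 30 °C. Every heat-shocked library was thus far below every unheated one, and RAS1 fell by 2.62 ± 0.24 on the log2 scale in Z100 (adjusted p = 5.3e-06) and fell by 3.70 ± 0.30 in XH7 (adjusted p = 6.2e-06). RAS2 (YNL098C, chrXIV:439602-440570, minus strand), which encodes the other GTPase, had 704, 778 and 792 scaled RPKM in Z100 at 50 °C, against 129, 150 and 128 at 30 °C. In XH7 it had 419 and 741 at 50 °C, against 91.2 and 91.8 at 30 °C. The XH7 libraries at 50 °C were far apart from each other but both above the unheated ones, and RAS2 rose by 2.48 ± 0.22 in Z100 (adjusted p = 4.7e-06) and by 2.66 ± 0.27 in XH7 (adjusted p = 2.1e-05).

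Within a library, the balance of the GTPase genes does not depend on how libraries are scaled. RAS1 made up 1.47% ± 0.21 of the summed FPKM of both genes in heat-shocked Z100 and 34.1% ± 2.7 in unheated Z100. Its share was 1.54% ± 0.055 in heat-shocked XH7 and 56.4% ± 0.68 in unheated XH7. The ratio of RAS2 to RAS1 was 77.0, 57.9 and 68.2 in Z100 at 50 °C, against 1.89, 2.20 and 1.74 at 30 °C. It was 65.7 and 62.4 in XH7 at 50 °C, against 0.788 and 0.757 at 30 °C. RAS1 was therefore the more abundant of the pair only in the unheated XH7 libraries. Averaged over the strains, the ratio was 53.7-fold higher with heat shock (log2 difference 5.75). In an exact two-sided permutation test within strains this gave p = 0.017, the smallest that its 120 arrangements allow, and an adjusted p of 0.028 over the 10 ratio tests made. Between strains the log2 ratio was higher by 0.70 in Z100 averaged over temperatures, which did not pass (exact permutation test within temperatures, p = 0.04, adjusted p = 0.05). At 30 °C its mean was 0.95 ± 0.17 in Z100 and -0.37 ± 0.04 in XH7, and at 50 °C it was 6.07 ± 0.21 in Z100 and 6.0 ± 0.05 in XH7.

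**Figure D2:**
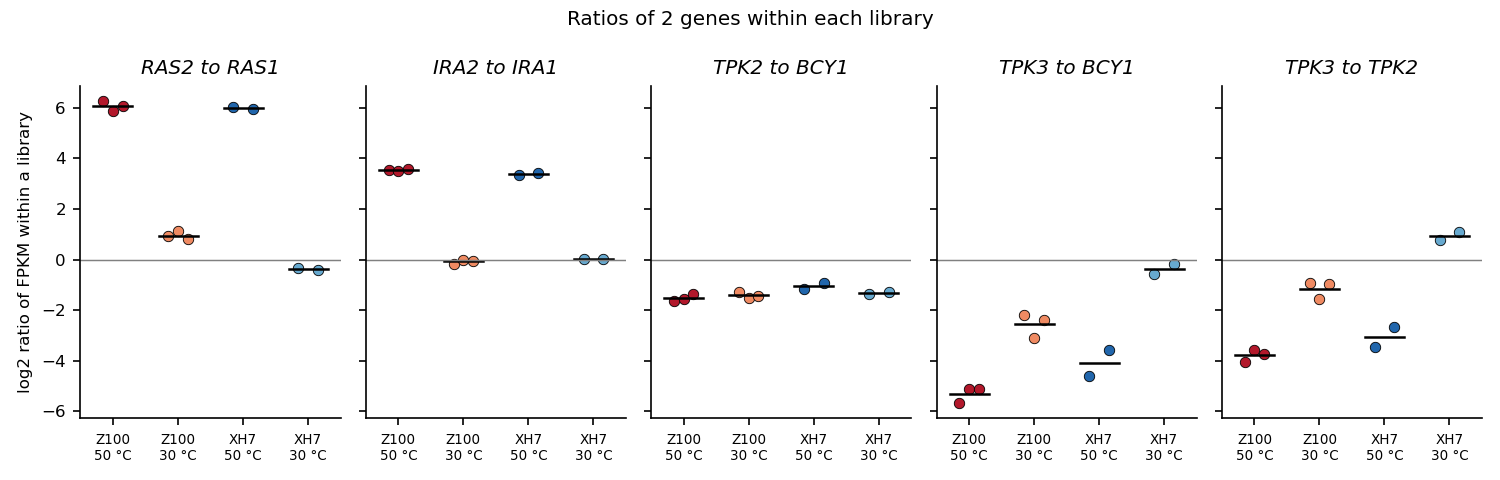
Log2 ratios of the deposited FPKM of 2 genes within each library, with 1 panel per ratio. Points are libraries and lines are group means. The RAS2 to RAS1 ratio lay at a mean log2 of 6.07 in Z100 and 6.0 in XH7 at 50 °C, and at 0.95 and -0.37 at 30 °C in the same strains.

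Reads of the GTPase pair can be told apart in most places, since RAS1 and RAS2 share 67.4% of 918 aligned bases and no run longer than 17 bases. That run, at base 61 of both open reading frames and in the nucleotide-binding loop of the GTPase, is gttggtaaatctgcttt. No member overlaps another annotated gene or has a copy of at least 95% identity over at least 50% of its length. The stretches from 400 to 101 bases upstream of the start codons are shown because these neighbours in function moved in opposite directions. They are printed 5′ to 3′ on the coding strand of each gene from the R64 genome, at chrXIV:440671-440970 (minus strand) for RAS2 and at chrXV:514844-515143 (plus strand) for RAS1, without the 100 bases next to the start codon. Capitals mark matches on either strand to the stress response element AGGGG, the core site of Msn2 and Msn4, and to the inverted heat shock element repeats GAANNTTC and TTCNNGAA; the searches could overlap.
RAS2: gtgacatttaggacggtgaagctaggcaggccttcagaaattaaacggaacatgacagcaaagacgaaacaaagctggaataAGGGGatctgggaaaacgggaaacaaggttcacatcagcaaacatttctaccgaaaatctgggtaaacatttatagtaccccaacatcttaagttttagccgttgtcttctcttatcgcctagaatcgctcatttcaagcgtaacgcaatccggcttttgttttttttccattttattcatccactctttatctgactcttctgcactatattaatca
RAS1: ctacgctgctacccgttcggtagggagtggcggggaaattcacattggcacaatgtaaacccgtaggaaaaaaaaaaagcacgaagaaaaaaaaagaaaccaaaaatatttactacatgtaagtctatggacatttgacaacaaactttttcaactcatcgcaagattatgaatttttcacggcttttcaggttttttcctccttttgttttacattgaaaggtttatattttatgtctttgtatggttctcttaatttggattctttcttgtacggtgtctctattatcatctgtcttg
The RAS2 stretch holds 1 AGGGG, at 318 to 314 bases before the start codon, and the RAS1 stretch holds none of the 3 motifs. The RAS2 stretch also reaches into the neighbouring gene PLS1. Of the 9 genes, 3 had an AGGGG match here (RAS2, CYR1 and TPK2), where 23.5% of 6001 protein-coding genes had one. IRA2 held none of the 3 motifs in this window. These are matches of letters and not measured binding.

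The 2 inhibitors of Ras were nearly equal without heat shock and far apart with it. IRA2 (YOL081W, chrXV:171070-180309, plus strand), which encodes a Ras GTPase-activating protein, had 304, 219 and 292 scaled RPKM in Z100 at 50 °C, against 10.6, 9.75 and 10.4 at 30 °C. In XH7 it had 259 and 154 at 50 °C, against 11.9 and 11.6 at 30 °C. With TMM scaling this was the largest change among the 9 genes in both strains, a rise of 4.73 ± 0.26 in Z100 (26.5-fold, adjusted p = 2.6e-07) and of 4.13 ± 0.31 in XH7 (17.5-fold, adjusted p = 3.6e-06). Scaled by library size alone, RAS1 changed most in XH7, at -4.19 beside 3.53 for IRA2. IRA1 (YBR140C, chrII:517350-526628, minus strand), its paralog, had 26.0, 19.5 and 24.5 scaled RPKM in Z100 at 50 °C, against 11.9, 9.82 and 10.8 at 30 °C. In XH7 it had 25.2 and 14.5 at 50 °C, against 11.7 and 11.4 at 30 °C. IRA1 rose by 1.11 ± 0.21 in Z100 (adjusted p = 0.00088) and by 0.78 ± 0.26 in XH7 (adjusted p = 0.023), and the size of both rises depended on scaling. Scaled by library size alone, edgeR gave 0.46 in Z100 (adjusted p = 0.041) and 0.18 in XH7 (adjusted p = 0.49), so the XH7 call ended. On the deposited FPKM, which are scaled by library totals, its values were 17.6, 16.4 and 19.3 in Z100 at 50 °C, against 15, 10.5 and 13.2 at 30 °C, and 19.3 and 14.7 in XH7 at 50 °C, against 14.5 and 15.6 at 30 °C, where the XH7 groups overlapped. Tested on that scale, the log2 change was 0.45 in Z100 (adjusted p = 0.052, limma) and 0.16 in XH7 (adjusted p = 0.56, limma). When edgeR was fitted to the compared groups alone, without the Z100 libraries, the XH7 call of IRA1 ended too. The XH7 call of IRA1 also ended without XH7 50 °C replicate 1 (0.33, adjusted p = 0.24), XH7 30 °C replicate 1 (adjusted p = 0.083) or replicate 2 (adjusted p = 0.1), all by edgeR.

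The IRA2 to IRA1 ratio was tight within groups. It was 11.7, 11.2 and 11.9 in Z100 at 50 °C, against 0.891, 0.994 and 0.969 at 30 °C, and 10.3 and 10.6 in XH7 at 50 °C, against 1.02 in each XH7 library at 30 °C. The ratio was 11.2-fold higher with heat shock (log2 difference 3.48, exact permutation test within strains, p = 0.017, adjusted p = 0.028). Between the strains it differed by 0.03 on the log2 scale (exact permutation test, p = 0.68, adjusted p = 0.68). The open reading frames of the pair share 61.7% of 8884 aligned bases and no run longer than 22 bases.

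Of the cyclic AMP enzymes, the adenylate cyclase gene rose in both strains and the phosphodiesterase gene passed the test in Z100. CYR1 (YJL005W, chrX:425157-431237, plus strand), which encodes the cyclase, had 68.7, 55.7 and 61.3 scaled RPKM in Z100 at 50 °C, against 16.7, 16 and 18.1 at 30 °C. In XH7 it had 60.2 and 49.6 at 50 °C, against 15.5 and 15.2 at 30 °C. It rose by nearly the same amount in both strains, 1.87 ± 0.15 in Z100 (adjusted p = 2.9e-06) and 1.84 ± 0.19 in XH7 (adjusted p = 2.2e-05). PDE2 (YOR360C, chrXV:1013241-1014821, minus strand), the gene of the high-affinity phosphodiesterase, had 55.0, 59.4 and 68.0 scaled RPKM in Z100 at 50 °C, against 41.3, 34.5 and 41.1 at 30 °C. In XH7 it had 61.6 and 73.9 at 50 °C, against 76.3 and 86.6 at 30 °C. PDE2 rose by 0.64 ± 0.15 in Z100 (adjusted p = 0.0034), and was at -0.27 ± 0.19 in XH7 (adjusted p = 0.23, 95% interval -0.68 to 0.15). Scaled by library size alone, PDE2 was at 0.01 in Z100 (adjusted p = 0.98) and at -0.80 in XH7 (adjusted p = 0.033), so its Z100 call ended and an XH7 call arose.

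The PKA subunits split as well. BCY1 (YIL033C, chrIX:290419-291669, minus strand), the only regulatory subunit gene of yeast PKA, had 522, 354 and 355 scaled RPKM in Z100 at 50 °C, against 95, 140 and 102 at 30 °C. In XH7 it had 313 and 195 at 50 °C, against 57.0 and 46.7 at 30 °C. It rose by 1.87 ± 0.26 in Z100 (adjusted p = 8.9e-05) and by 2.29 ± 0.32 in XH7 (adjusted p = 0.00014). TPK2 (YPL203W, chrXVI:166256-167398, plus strand), a catalytic subunit gene also known for its part in pseudohyphal growth, had 170, 121 and 139 scaled RPKM in Z100 at 50 °C, against 39.2, 48.6 and 37.9 at 30 °C. In XH7 it had 138 and 104 at 50 °C, against 22.3 and 19.2 at 30 °C. TPK2 rose by 1.77 ± 0.19 in Z100 (adjusted p = 1.6e-05) and by 2.54 ± 0.24 in XH7 (adjusted p = 1.3e-05). TPK3 (YKL166C, chrXI:134509-135705, minus strand), another catalytic subunit gene, had 10.2, 10.2 and 10.4 scaled RPKM in Z100 at 50 °C, against 20.8, 16.4 and 19.6 at 30 °C. In XH7 it had 12.7 and 16.5 at 50 °C, against 38.3 and 41.0 at 30 °C. It fell by 0.88 ± 0.16 in Z100 (adjusted p = 0.00054) and fell by 1.44 ± 0.19 in XH7 (adjusted p = 0.00011).

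The proportion of TPK3 to the other subunit genes changed with heat shock and between strains, and that of TPK2 to BCY1 did not pass the test for either. The TPK2 to BCY1 ratio lay between 0.325 and 0.392 in heat-shocked Z100 and between 0.346 and 0.413 in unheated Z100, and at 0.441 and 0.533 in heat-shocked XH7 and 0.391 and 0.412 in unheated XH7. Its log2 difference with heat shock, averaged over the strains, was 0.09 (exact permutation test, p = 0.55, adjusted p = 0.61). Between Z100 and XH7 it was -0.28 (exact permutation test, p = 0.04, adjusted p = 0.05), and neither passed. The heat shock average joins opposite signs. Mean log2 ratios in Z100 were -1.51 ± 0.14 with heat shock and -1.41 ± 0.13 without. Those in XH7 were -1.04 ± 0.19 with heat shock and -1.32 ± 0.05 without. The TPK3 to BCY1 ratio was 0.0195, 0.029 and 0.0292 in Z100 at 50 °C, against 0.219, 0.117 and 0.192 at 30 °C. It was 0.0406 and 0.085 in XH7 at 50 °C, against 0.671 and 0.877 at 30 °C. The TPK3 to BCY1 ratio was lower with heat shock (log2 difference -3.22, exact permutation test, p = 0.017, adjusted p = 0.028). It was also lower in Z100 than in XH7 (-1.69, exact permutation test, p = 0.01, adjusted p = 0.028). Both p-values are the smallest that their 120 and 100 arrangements allow. The TPK3 to TPK2 ratio likewise differed by -3.31 with heat shock (exact permutation test, p = 0.017, adjusted p = 0.028) and by -1.41 between Z100 and XH7 (exact permutation test, p = 0.01, adjusted p = 0.028).

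TPK2 and TPK3 share 67.4% of 1140 aligned bases and no run longer than 14 bases. Their stretches from 400 to 101 bases upstream of the start codon, at chrXVI:165856-166155 (plus strand) for TPK2 and chrXI:135806-136105 (minus strand) for TPK3, are shown as the other pair that moved apart, with capitals as above.
TPK2: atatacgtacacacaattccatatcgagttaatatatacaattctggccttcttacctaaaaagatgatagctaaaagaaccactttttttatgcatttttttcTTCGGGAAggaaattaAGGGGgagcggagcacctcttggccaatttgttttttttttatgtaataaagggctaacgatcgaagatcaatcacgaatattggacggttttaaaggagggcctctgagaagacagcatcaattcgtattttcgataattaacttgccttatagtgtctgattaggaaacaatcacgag
TPK3: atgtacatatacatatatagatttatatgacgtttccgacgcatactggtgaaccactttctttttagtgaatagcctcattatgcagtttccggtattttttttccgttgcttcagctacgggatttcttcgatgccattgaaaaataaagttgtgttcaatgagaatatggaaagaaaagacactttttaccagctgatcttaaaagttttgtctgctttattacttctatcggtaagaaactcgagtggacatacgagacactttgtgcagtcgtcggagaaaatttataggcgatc
The TPK2 stretch holds 1 AGGGG, at 280 to 276 bases before the start codon, and 1 TTCNNGAA (TTCGGGAA), at 296 to 289 bases. The TTCNNGAA letters occurred in 13.8% of the 6001 windows, and GAANNTTC, found in none of the 9 genes, in 12.4%. The TPK3 stretch holds none of the 3 motifs. The post-diauxic shift element AGGGAT, searched as well, was in 1 of the 9 windows, that of IRA1, and in 9.73% of all. The IRA1 window also reaches into the neighbouring gene BMT2.

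The order of the 9 genes by level changed with heat shock. In Z100 at 50 °C the order by mean scaled RPKM was RAS2 (758 ± 47.1), BCY1 (410 ± 96.6), IRA2 (272 ± 46.1), TPK2 (143 ± 24.7), CYR1 (61.9 ± 6.48), PDE2 (60.8 ± 6.62), IRA1 (23.3 ± 3.39), RAS1 (11.4 ± 2.15) and TPK3 (10.3 ± 0.0832). In XH7 at 50 °C it was RAS2 (580 ± 227), BCY1 (254 ± 83.7), IRA2 (206 ± 74.5), TPK2 (121 ± 24.3), PDE2 (67.7 ± 8.71), CYR1 (54.9 ± 7.50), IRA1 (19.8 ± 7.56), TPK3 (14.6 ± 2.70) and RAS1 (9.12 ± 3.88). Libraries overlapped between CYR1 and PDE2 and between RAS1 and TPK3 in Z100, and between BCY1 and IRA2 and between IRA1 and TPK3 in XH7. At 30 °C the order in Z100 was RAS2 (136 ± 12.7), BCY1 (112 ± 24.5), RAS1 (69.9 ± 3.13), TPK2 (41.9 ± 5.81), PDE2 (39.0 ± 3.87), TPK3 (18.9 ± 2.28), CYR1 (16.9 ± 1.07), IRA1 (10.8 ± 1.02) and IRA2 (10.3 ± 0.438). In XH7 at 30 °C it was RAS1 (118 ± 3.85), RAS2 (91.5 ± 0.428), PDE2 (81.4 ± 7.31), BCY1 (51.9 ± 7.26), TPK3 (39.6 ± 1.92), TPK2 (20.8 ± 2.15), CYR1 (15.3 ± 0.204), IRA2 (11.8 ± 0.198) and IRA1 (11.5 ± 0.254). At 30 °C libraries overlapped between the neighbours RAS2 and BCY1, TPK2 and PDE2, TPK3 and CYR1, and IRA1 and IRA2 in Z100, and between IRA1 and IRA2 in XH7.

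Without heat shock, 5 of the 9 genes differed between the strains: BCY1 and TPK2 were higher in Z100, and TPK3, PDE2 and RAS1 were lower. Of all genes tested, 28.4% were called (14.3% higher and 14.1% lower in Z100). BCY1 averaged 112 ± 24.5 scaled RPKM in Z100 and 51.9 ± 7.26 in XH7 (log2 fold change 1.12 ± 0.29, adjusted p = 0.02). TPK2 averaged 41.9 ± 5.81 in Z100 and 20.8 ± 2.15 in XH7 (1.01 ± 0.21, adjusted p = 0.0088). TPK3 averaged 18.9 ± 2.28 in Z100 and 39.6 ± 1.92 in XH7 (-1.06 ± 0.17, adjusted p = 0.0025). PDE2 averaged 39.0 ± 3.87 in Z100 and 81.4 ± 7.31 in XH7 (-1.06 ± 0.17, adjusted p = 0.0023). RAS1 averaged 69.9 ± 3.13 in Z100 and 118 ± 3.85 in XH7 (-0.76 ± 0.24, adjusted p = 0.043). RAS2 was at 0.57 ± 0.24 (adjusted p = 0.097, called in 5 of 20 alternatives), CYR1 at 0.14 ± 0.17 (adjusted p = 0.55), IRA1 at -0.09 ± 0.23 (adjusted p = 0.78) and IRA2 at -0.20 ± 0.25 (adjusted p = 0.56). Libraries of the 2 strains did not overlap for 8 of the 9 genes, all but IRA1, as for 72.3% of all genes.

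The TPK3 and PDE2 calls at 30 °C remained in all 20 alternatives. The RAS1 call ended in 9 of them, with adjusted p up to 0.21, namely RLE scaling, scaling by library size alone, limma on FPKM, and without any 1 of the 5 unheated libraries or Z100 50 °C replicate 3. The BCY1 call ended without Z100 30 °C replicate 2 (0.92, adjusted p = 0.058), XH7 30 °C replicate 1 (1.27, adjusted p = 0.077) or its replicate 2 (0.98, adjusted p = 0.17). The TPK2 call ended without XH7 30 °C replicate 2 (0.91, adjusted p = 0.11), all by edgeR.

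After heat shock, none of the 9 genes was called between the strains by edgeR, where 8.96% of all genes were (4.02% higher and 4.94% lower in Z100). BCY1 averaged 410 ± 96.6 scaled RPKM in Z100 and 254 ± 83.7 in XH7, a log2 fold change of 0.69 ± 0.28 (unadjusted p = 0.034, adjusted p = 0.15, 95% interval 0.06 to 1.32). TPK3 averaged 10.3 ± 0.0832 in Z100 and 14.6 ± 2.70 in XH7, a log2 fold change of -0.51 ± 0.17 (unadjusted p = 0.014, adjusted p = 0.093, 95% interval -0.90 to -0.13). These 2 genes had an unadjusted p under 0.05, and they were also the 2 of 9 whose libraries did not overlap between the strains, as for 36.4% of all genes. The other values ran from -0.16 ± 0.17 (PDE2) to 0.40 ± 0.25 (IRA2). By DESeq2 and by limma-voom none of the 9 genes was called either. RAS2 was at 0.39 ± 0.24, and without XH7 50 °C replicate 2 it was at 0.89 (adjusted p = 0.03). The spread in XH7 at 50 °C limits this comparison, since a single XH7 library moves several values. These intervals come from 1 fit of all 4 groups, so unheated libraries helped to set their width. The median SD of log2 CPM was 0.324 in heat-shocked XH7 and 0.0917 in unheated XH7. Fitted to the compared groups alone, edgeR called far fewer of all genes and again none of the 9.

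**Figure D3:**
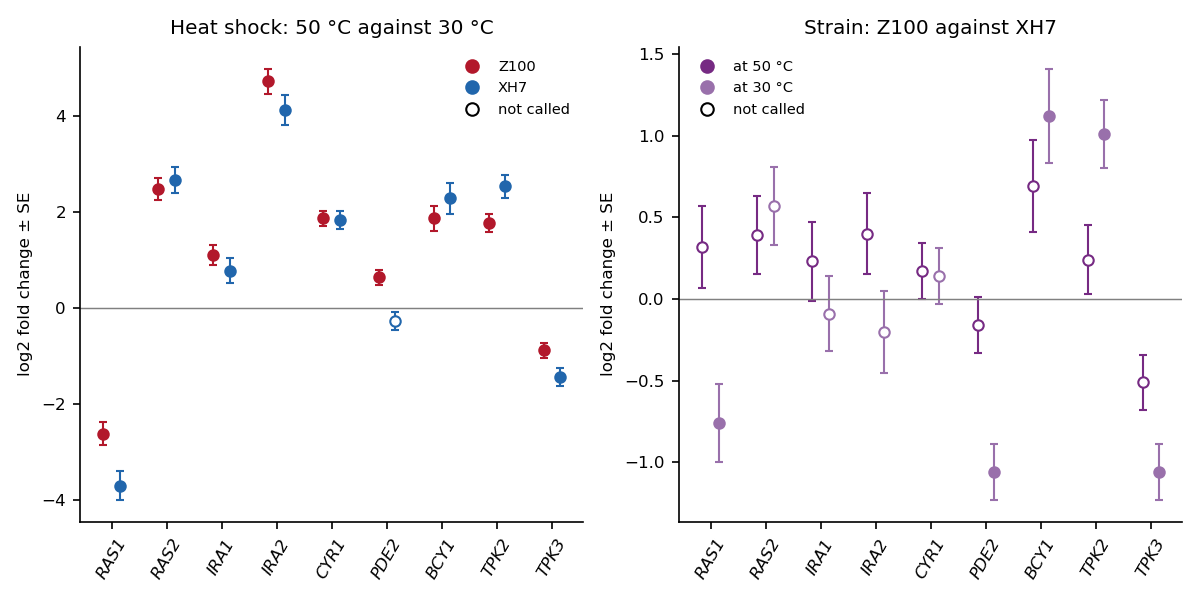
Log2 fold changes of the 9 genes with their standard errors, for heat shock in Z100 and XH7 (left) and for the strains, Z100 over XH7, after and without heat shock (right). Filled points passed an adjusted p of 0.05. IRA2 stands highest with heat shock (TMM scaling), at 4.73 in Z100 and 4.13 in XH7, and no point at 50 °C is filled in the strain panel.

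The difference between the heat responses of the strains passed for none of the 9 genes by edgeR with TMM scaling. Of all genes, 4.27% passed (1.63% higher and 2.64% lower in Z100). PDE2 came nearest, with a response 0.91 ± 0.24 higher in Z100 (unadjusted p = 0.0037, adjusted p = 0.06, 95% interval 0.37 to 1.44). RAS1 was at 1.08 ± 0.35 (unadjusted p = 0.012, adjusted p = 0.1), TPK2 at -0.77 ± 0.29 (unadjusted p = 0.025, adjusted p = 0.15) and TPK3 at 0.55 ± 0.25 (unadjusted p = 0.048, adjusted p = 0.2). The other 5 ran from -0.42 ± 0.39 (BCY1) to 0.60 ± 0.35 (IRA2). DESeq2 called 2, PDE2 (adjusted p = 0.0051) and RAS1 (adjusted p = 0.05, under the threshold before rounding). Scaled by library size alone, edgeR called only TPK2, with a lower response in Z100, and limma on FPKM did the same. Without XH7 50 °C replicate 2, edgeR called 3, RAS1 (1.56, adjusted p = 0.015), PDE2 (1.01, adjusted p = 0.031) and TPK2 (-1.0, adjusted p = 0.042). Without Z100 50 °C replicate 1 it called PDE2 alone (0.97, adjusted p = 0.048).

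Other genes of the pathway were counted from 3 lists. Of 13 table entries for upstream regulators and partners (12 genes, since SDC25 has 2 entries), 6 rose and 2 fell with heat shock in Z100, and 7 rose and 2 fell in XH7. These counts are near the 69.9% of all genes called in Z100 and 63.3% in XH7, and the list's median log2 fold change was 0.54 in Z100 (-0.05 over all genes) and 0.64 in XH7 (0.01). TFS1, which encodes an inhibitor of carboxypeptidase Y reported to inhibit Ira2 as well, rose by 5.79 ± 0.45 in Z100 and by 7.63 ± 0.59 in XH7. PDE1, the low-affinity phosphodiesterase gene, rose by 2.63 ± 0.27 in Z100 and by 2.84 ± 0.33 in XH7. The SDC25 entry YLL017W rose by 2.38 ± 0.34 in Z100 and by 1.74 ± 0.40 in XH7, while its other entry, YLL016W, was at 0.35 ± 0.18 (adjusted p = 0.11) and 0.31 ± 0.22 (adjusted p = 0.25) in the same strains. ASC1, a ribosome-bound protein gene that also acts as the beta subunit of Gpa2, fell by 4.13 ± 0.35 in Z100 and fell by 3.26 ± 0.42 in XH7. RGS2, which encodes a regulator that turns off Gpa2, fell by 2.34 ± 0.20 in Z100 and fell by 2.29 ± 0.25 in XH7. CDC25, the gene of the exchange factor that loads Ras with GTP, was at -0.01 ± 0.16 in Z100 (adjusted p = 0.98) and 0.16 ± 0.19 in XH7 (adjusted p = 0.48). Scaled by library size alone, the counts were 5 higher and 5 lower in Z100 and 5 higher and 3 lower in XH7.

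The lipid modification list holds 7 genes for the lipid modification and processing of Ras or of other prenylated proteins. Of these, 3 rose and 3 fell in Z100, beside 33.8% higher and 36.2% lower of all genes. In XH7, 2 rose and none fell, beside 31.3% higher and 32% lower of all genes. The median log2 fold change was -0.15 in Z100 and 0.06 in XH7. STE24, a prenyl-protein protease gene, rose by 2.57 ± 0.15 in Z100 and 1.49 ± 0.18 in XH7, and SHR5, a subunit of the Ras palmitoyltransferase, by 1.48 ± 0.36 and 2.38 ± 0.45. STE14, the carboxyl methyltransferase gene, fell by 1.16 ± 0.21 in Z100 and was at -0.49 ± 0.26 in XH7 (adjusted p = 0.12). RCE1, a CAAX protease gene, fell by 0.91 ± 0.21 in Z100 and was at -0.14 ± 0.25 in XH7 (adjusted p = 0.64). Under library size alone, 2 were higher and 4 lower in Z100, and 2 higher and 2 lower in XH7.

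Of 16 kinases and factors reported to act below PKA, 9 rose and 4 fell in Z100, and 9 rose and 3 fell in XH7, where 69.9% of all genes were called in Z100 and 63.3% in XH7. The median log2 fold change was 0.77 in Z100 and 0.69 in XH7. ADR1, a transcription factor gene of alcohol and fatty acid use, rose by 4.19 ± 0.28 in Z100 and 5.66 ± 0.37 in XH7. YAK1, a kinase gene that opposes growth, rose by 2.06 ± 0.26 in Z100 and 2.55 ± 0.33 in XH7. TOD6, a repressor gene of ribosome biogenesis, fell by 3.92 ± 0.47 in Z100 and fell by 4.5 ± 0.59 in XH7. SOK2, a regulator gene of pseudohyphal growth, fell by 2.97 ± 0.20 in Z100 and fell by 2.06 ± 0.24 in XH7. The stress factor genes MSN2 and MSN4 were at 0.16 ± 0.16 and 0.07 ± 0.28 in Z100 (adjusted p = 0.39 and 0.83) and at 0.33 ± 0.20 and -0.43 ± 0.35 in XH7 (adjusted p = 0.18 and 0.3). Under library size alone, 6 were higher and 5 lower in Z100, and 4 higher and 4 lower in XH7.

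**Figure D4:**
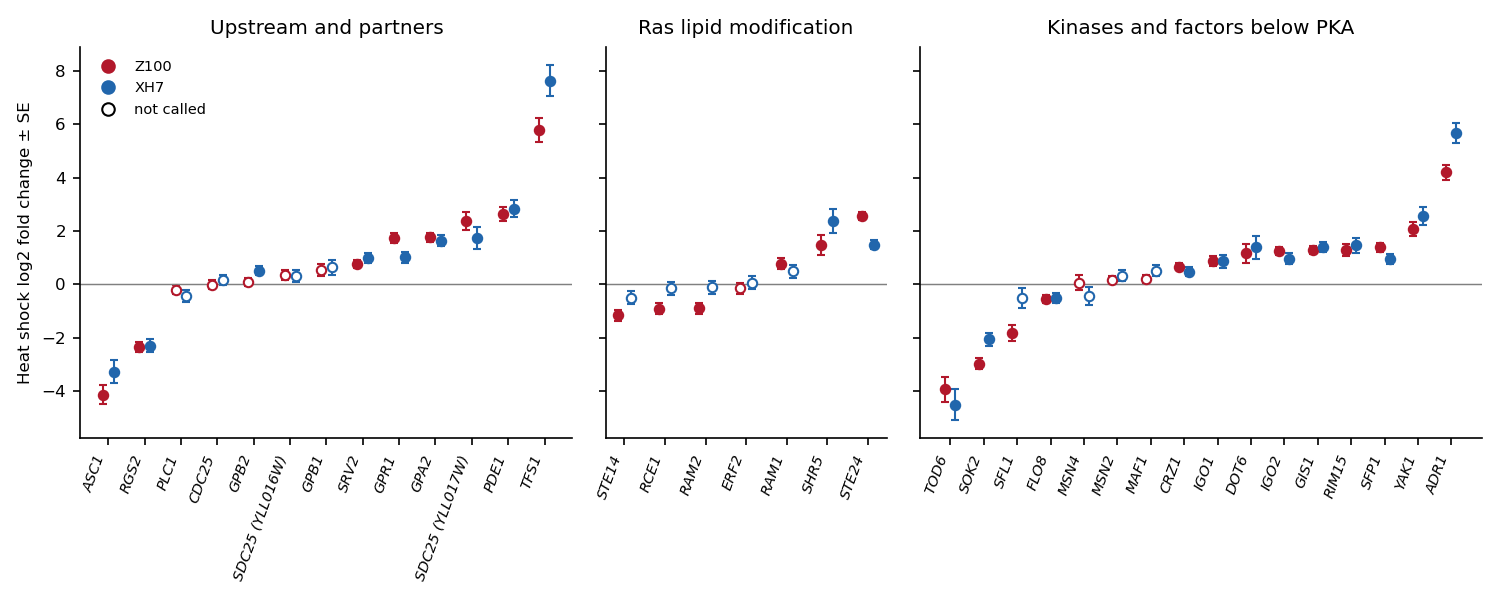
Heat shock log2 fold changes with standard errors in Z100 and XH7 for the other pathway genes, in 3 lists ordered by the value in Z100. Filled points passed an adjusted p of 0.05. TFS1 and ADR1 stand highest in their lists, with TFS1 at 5.79 in Z100 and 7.63 in XH7.

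Between the strains at 30 °C, each of these lists had 2 entries called higher and 1 called lower in Z100. The lists hold 13 upstream entries, 7 lipid modification genes and 16 genes below PKA, and 28.4% of all genes tested were called. TFS1 was higher in Z100, with 101 ± 7.2 in Z100 and 22.6 ± 2.67 in XH7 (2.16 ± 0.44, adjusted p = 0.0079). Of the other called genes, GPR1, which encodes the glucose-sensing receptor above Gpa2, was lower in Z100 (-0.91 ± 0.20, adjusted p = 0.0098) and GPB2, a kelch repeat protein gene that restrains this pathway, was higher (0.56 ± 0.16, adjusted p = 0.029). SHR5 (1.69 ± 0.42, adjusted p = 0.017) and RAM2, a farnesyltransferase subunit gene (0.86 ± 0.23, adjusted p = 0.023), were higher, and STE24 was lower (-0.63 ± 0.16, adjusted p = 0.019). Below PKA, ADR1 (1.31 ± 0.29, adjusted p = 0.01) and YAK1 (1.17 ± 0.30, adjusted p = 0.018) were higher and SFP1 was lower (-0.58 ± 0.17, adjusted p = 0.03). Each of these 9 calls ended without at least XH7 30 °C replicate 2, and their highest adjusted p over the 20 alternatives was 0.19. At 50 °C, SOK2 was the only entry of the 3 lists called (-0.81 ± 0.21, adjusted p = 0.041), beside 8.96% of all genes. That call ended in 10 of 20 alternatives.

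Genes with the most similar profile were found by the root mean square difference of log2 CPM, centred on each gene's mean, over the 10 libraries. RAS1 lay nearest to NOP10 (0.162), RAS2 to ICS2 (0.163), CYR1 to PSK1 (0.117), IRA1 to TAO3 (0.128) and IRA2 to PER33 (0.227). BCY1 lay nearest to SDH8 (0.18), TPK2 to AQY3 (0.137), TPK3 to ETT1 (0.129) and PDE2 to MDM20 (0.127). All 10 libraries share the large heat contrast, so these distances are a description.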

How the data were processed

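Poly(A) RNA was sequenced on an Illumina NovaSeq, per the labels' protocols, with a kit that does not mark strand. Per gene, raw counts were deposited by the authors for 6059 genes, along with FPKM values that follow from those counts, gene length and library total. Annotated lengths matched the lengths recovered from counts and FPKM (median ratio 1.0018 over 4186 genes). The aligner and counter were not given in the sources used here. Member positions were those of R64. Transcript counts equalled gene counts in 100% of values. The 3 emptied lines of each table were not used here.

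The tests used edgeR 4.0.16 in R 4.3.3, with TMM scaling (factors of 0.678 to 1.016 in heat-shocked and 1.075 to 1.375 in unheated libraries), filterByExpr and a quasi-likelihood F test in 1 model of 4 group means. Its biological coefficient of variation was 0.238, with residual df of 6 and prior df of 3.95. Benjamini-Hochberg adjustment covered 6015 genes at a threshold of 0.05. Standard errors are the log2 fold change over the square root of F. FPKM ratios were tested by exact permutation within strains or temperatures. Alternatives were DESeq2 1.42.0, limma-voom, limma 3.58.1 on log2(FPKM + 0.5), other scalings and filters, fits of only the compared groups, a replicate block, and each library left out. A library left alone in its group was assumed to vary like the others. The procedures were tested on simulated data. All 9 members are named, and up to 4 called genes by size per other list and comparison. CDC25, MSN2, MSN4 and the second SDC25 entry were named after their values were seen, and 1 gene of the lists is not reported here. The members and lists were chosen with earlier results of these data known. Sequences came from RefSeq's R64 genome, read with Biopython 1.88.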

Additional observations from a re-analysis of the deposited data

Results flagged for a closer look

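The response of STE24, the prenyl-protein protease gene, differed between the strains by the test of the difference itself. STE24 was the only entry called in this test among the 3 lists of 13, 7 and 16 entries, beside 4.27% of all genes. Some uncalled entries differed more in size, such as TFS1 (-1.84 ± 0.58, adjusted p = 0.094) and ADR1 (-1.47 ± 0.39, adjusted p = 0.06), both by edgeR. DESeq2 also called 1 upstream entry and 2 entries below PKA, with lower responses in Z100. The heat shock log2 fold change of STE24 was 2.57 ± 0.15 in Z100 and 1.49 ± 0.18 in XH7. This is a difference of 1.08 ± 0.23 (adjusted p = 0.032, edgeR's quasi-likelihood test). The difference lay between 0.99 and 1.18 over 19 alternatives and missed the threshold in 10 of them, with adjusted p up to 0.16.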

How the results depend on the processing

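Of the 891 values of members under alternatives, 840 kept their direction and their side of the threshold. Of the 17 heat shock calls 14 remained in every alternative, and of the 5 strain calls at 30 °C 2 did. Scaled by library size alone, the median log2 fold change of all genes was -0.68 for heat shock in Z100, -0.54 in XH7, -0.21 between strains at 30 °C and -0.23 at 50 °C. The share of calls that were higher was then 28.1% for heat shock in Z100 (48.3% with TMM), 31.4% in XH7 (49.4%), 17.7% between strains at 50 °C (44.9%) and 11.5% for the difference of responses (38.1%). Among strain calls over all genes, 1709 at 30 °C became 3155 with the compared groups alone. The 539 at 50 °C became 4 with the compared groups alone, 240 with the replicate block and 1070 by DESeq2. The 257 differences of response became 152 with the replicate block and 841 by DESeq2. The count of members whose responses differed was 1 with library size only, 1 by limma on FPKM (TPK2 in both) and 2 by DESeq2.

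Without each library in turn, genes called numbered 292 to 2223 between strains at 30 °C (292 without XH7 30 °C replicate 2), 146 to 607 at 50 °C and 2 to 1065 for the difference of responses (1065 without XH7 50 °C replicate 2). Members called numbered 2 to 6 at 30 °C, 0 to 1 at 50 °C and 0 to 3 for the difference of responses. The strain difference of the RAS2 to RAS1 ratio was 0.65 to 0.75, and passed without Z100 50 °C replicate 2. That of TPK2 to BCY1 was -0.35 to -0.21, and passed without Z100 30 °C replicate 1.

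Values that changed sign were all uncalled. Between strains at 50 °C, CYR1 was at -0.04 with library size only and -0.03 on FPKM, and without single libraries RAS1 ran from -0.06 to 0.88, IRA1 from -0.08 to 0.69 and PDE2 from -0.28 to 0.02, with the ends set by the XH7 libraries at 50 °C. In the difference of responses, CYR1 was at -0.02 with upper quartile scaling, -0.05 with library size only and -0.04 on FPKM. Without single libraries CYR1 ran from -0.14 to 0.18, RAS2 from -0.53 to 0.25 and IRA1 from -0.06 to 0.78, with the ends again set by those libraries. The causes were not tested.

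Whether replicate numbers pair the samples could not be settled. Deviations of same-numbered libraries correlated at 0.121 for heat shock in XH7, -0.122 to 0.145 in Z100 and -0.145 to -0.107 between strains at 30 °C. Between strains at 50 °C they correlated at 0.529 to 0.635, against -0.635 to 0.198 for libraries with different numbers. The 2 XH7 libraries of a group deviate as exact mirrors, which limits what these correlations can show. With the numbers as a block, the heat shock differences of log2 ratio were 5.62 (RAS2 to RAS1), 3.51 (IRA2 to IRA1), -3.13 (TPK3 to BCY1) and -3.18 (TPK3 to TPK2), each with an exact adjusted p of 0.16. The strain differences were -1.78 (TPK3 to BCY1) and -1.47 (TPK3 to TPK2), with an exact adjusted p of 0.21. The 32 and 16 arrangements of these block tests cannot pass the threshold.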
